A study of Mus musculus with 6 samples.

Results

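The Hox genes of the 4 mouse clusters were taken from the deposited PRO-seq table as every gene whose symbol is Hoxa, Hoxb, Hoxc or Hoxd followed by a number, which gave 31 of 14546 listed genes. They were 11 genes of the Hoxa cluster on chromosome 6, 7 of the Hoxb cluster on chromosome 11, 9 of the Hoxc cluster on chromosome 15 and 4 of the Hoxd cluster on chromosome 2. The annotation holds 39 such genes, and Hoxb1, Hoxb9, Hoxb13, Hoxd1, Hoxd10, Hoxd11, Hoxd12 and Hoxd13 were not analysed here. PRO-seq maps the positions of engaged RNA polymerase from nascent RNA that incorporates biotin-labelled nucleotides, here in isolated nuclei.

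The cells were muscle stem cells (MuSC, satellite cells) that were proliferating in culture after isolation from the pooled limb and trunk muscles of mice. The 3 Ctrl libraries carried the genotype Pax7CreERT/Suv4-20h1WT and the 3 Kmt5bsKO libraries the genotype Pax7CreERT/Suv4-20h1KO. Suv4-20h1 is another name of Kmt5b, a histone H4 lysine methyltransferase, and the comparison asks what its loss changes in nascent transcription. Both groups therefore carried the tamoxifen-dependent Cre under the control of Pax7, so that the deletion is limited to cells that had expressed Pax7. The labels do not say that the libraries came from separate animals. The paper's reporting summary names 3 biological replicates for PRO-seq without saying what they were. The p-values measure only the spread between these libraries.

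Each gene had a value for its TSS region, the first 400 nt after the start of its listed transcript, in RPM, which is scaled to the reads of all TSS regions together. The rest of the transcript, the gene body, had a value in TPM, which is also scaled per length. Reads recovered from these values amounted to 926904 to 3246088 per library over the TSS regions and 7425433 to 16249797 over the gene bodies, and Kmt5bsKO replicate 2 was the shallowest library on both counts. Kmt5b itself was not lower in the mutant libraries. Its gene body values were 30.6, 35.4 and 38.5 TPM in Ctrl against 37.8, 35.0 and 42.6 TPM in Kmt5bsKO. Values per gene cannot show whether single exons were removed, so the genotype here rests on the labels. The paper reports a strong decrease of the histone mark H4K20me2 in Kmt5bsKO MuSC. Of the cell identity markers, all 8 MuSC and myoblast genes were listed and Myod1 had a mean of 1135 TPM. Means of Pax7, Myf5 and Cdh15 were lower in Kmt5bsKO, and those of Myod1, Myog, Des, Itga7 and Cdh2 higher. Pax7 had means of 38.6 TPM in Ctrl against 27.8 TPM in Kmt5bsKO, and Des 443 against 737 TPM. In the gene body limma called 0 of the 8, whereas DESeq2 called Des as higher, beside 10.4% of all tested genes. Ptprc, Kdr, Tnmd, Dcn and Lum were not among the listed genes. Other markers of fibroblasts and endothelial cells were listed, 5 of 7 and 4 of 6, with means of 44.0 TPM for Col3a1, 5.04 TPM for Ly6a and 2.59 TPM for Pecam1. Their summed levels overlapped between the groups, at 46.2 to 61.5 TPM in Ctrl against 44.2 to 49.2 TPM in Kmt5bsKO for fibroblasts and 3.54 to 8.57 TPM against 5.45 to 14.7 TPM for endothelial cells. Within these lists Cd34, Cdh5 and Pecam1 lay higher in every Kmt5bsKO library, as 12.0% of all tested genes did. Their means were 0.160, 0.293 and 2.20 TPM in Ctrl against 0.853, 0.923 and 2.98 TPM in Kmt5bsKO. Cd68 and Acta2, listed as immune and mural markers but not limited to those cells, had means of 319 and 313 TPM. The summed level of 4 Schwann cell markers was 33.1 to 54.8 TPM in Ctrl against 74.6 to 83.3 TPM in Kmt5bsKO, without overlap of the groups. That of the 2 listed tendon markers, Scx and Mkx, was 48.3 to 69.1 against 85.0 to 115 TPM, also without overlap. The tendon sum followed Scx, with means of 57.9 TPM in Ctrl against 98.8 TPM in Kmt5bsKO. Mkx did not rise, with means of 1.62 against 1.58 TPM. The Schwann cell marker Sox10 rose in the gene body, by 1.56 on the log2 scale (limma, adjusted p = 0.0754). The part of other cells in the Hox values below was not tested, and in bulk libraries fewer cells of a type cannot be told apart from less RNA per cell.

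Hox genes encode homeodomain transcription factors that give cells their position along the body axis and, for the posterior members of the Hoxa and Hoxd clusters, along the limb. Genes within a cluster are numbered by paralog group, and genes at the low-numbered end are active further towards the head than those at the high-numbered end. Cells of adult muscle and connective tissue are known to retain part of the combination of Hox genes that was laid down in the embryo. The genes are short and lie close together on 1 strand, which bears on the counting of reads. The gene body of the listed Hoxa3 transcript, 43653 nt, held Hoxa4, Hoxa5 and Hoxa6 whole, and that of Hoxd3, 35944 nt, held Hoxd4. Over all members, 12 gene bodies overlapped another annotated gene on the same strand, and the bodies of Hoxc6, Hoxc8, Hoxc9 and Hoxc10 lay under a long transcript annotated to Hoxc5. Reads of such overlapping units cannot be told apart, so these genes do not give independent values.

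The gene bodies of 21 Hox genes had a mean of at least 10 TPM over the 6 libraries, and the whole series of levels ran from 0.435 TPM at Hoxb6 to 106 TPM at Hoxa10. The median of the 31 means was 19.5 TPM, beside 13.3 TPM for all listed genes. Levels are means over libraries on the length-scaled TPM scale, so that genes can be compared. No member is called higher than the next in the order, because the library ranges overlapped in all 30 neighbouring pairs. The order itself was alike between libraries, with Spearman's rho over the 31 genes of 0.889 to 0.971 in the 15 pairs of libraries (genes of 1 cluster share reads and are not independent). Paralog groups 9 to 13 held 42.3% to 54.2% of the summed gene body level in each library, groups 4 to 8 held 31.1% to 41.7% and groups 1 to 3 held 11.7% to 17.2%.

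**Figure D1:**
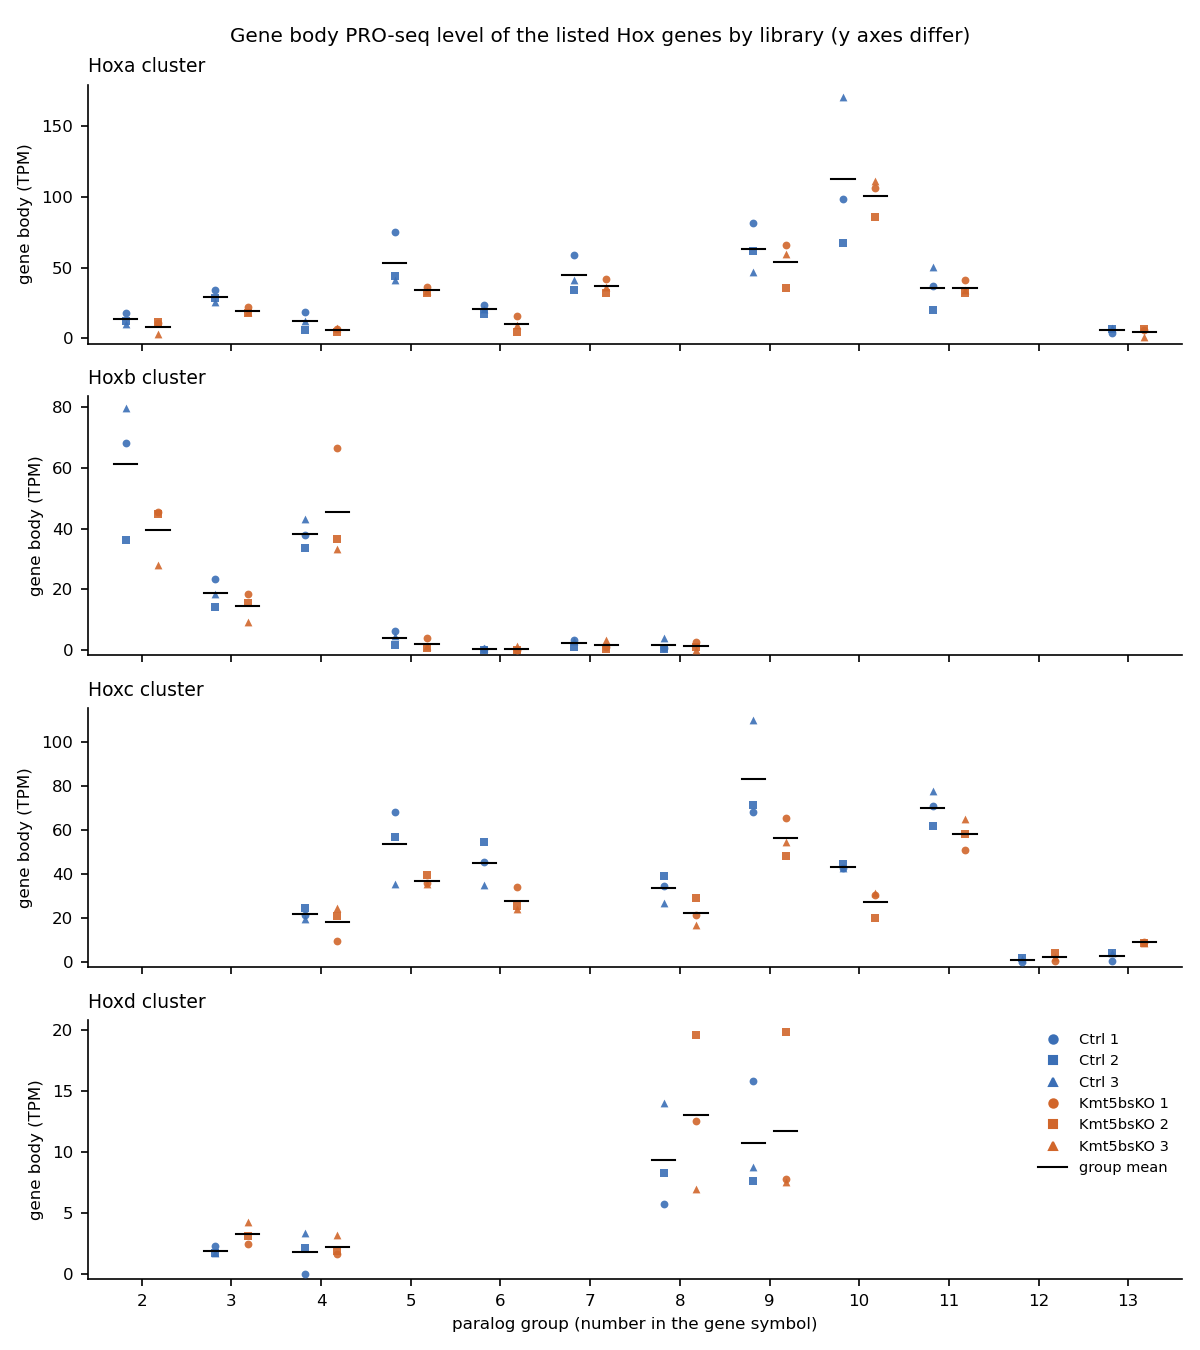
Gene body level in TPM (y axis, linear and different in each panel) of 30 listed Hox genes by paralog group (x axis), with 1 panel per cluster. Points are single libraries, blue for Ctrl and orange for Kmt5bsKO, and bars are group means of 3 libraries. Hoxa10 had the highest mean and Hoxb5 to Hoxb8 lay below 10 TPM in all 6 libraries.

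The Hoxa cluster held the member with the highest mean, Hoxa10. It was the highest Hox gene body in every library but Ctrl replicate 2, where Hoxc9 was highest. Hoxa10, which patterns the lumbar region and the upper hindlimb, had a gene body level of 98.4, 67.6 and 171 TPM in Ctrl against 106, 85.4 and 111 TPM in Kmt5bsKO, all in the order of replicates 1 to 3. Its spread over libraries was wide (mean 106 ± 35.1 TPM, SD, n = 6), Ctrl replicate 3 being the highest library and Ctrl replicate 2 the lowest, and the groups overlapped. Hoxa9, a posterior gene also known from blood progenitors and leukaemia, had 81.6, 61.6 and 46.6 TPM in Ctrl against 65.8, 35.7 and 59.7 TPM in Kmt5bsKO in its gene body. In its TSS region it had 164, 120.1 and 118 RPM in Ctrl against 100.3, 73.3 and 136 RPM in Kmt5bsKO, which made it the highest Hox gene there in each of the 6 libraries. Its neighbour Hoxa11, which shapes the forearm and lower leg, had 36.8, 19.9 and 50.4 TPM in Ctrl against 41.1, 32.3 and 34.3 TPM in Kmt5bsKO, and the groups overlapped.

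The central Hoxa genes had lower mean levels than Hoxa10. Hoxa5, known for roles in the lung and the shoulder girdle, had 74.8, 44.1 and 41.4 TPM in Ctrl against 36.6, 32.0 and 33.2 TPM in Kmt5bsKO, with all Kmt5bsKO libraries below all Ctrl libraries. Hoxa7, a gene of the thoracic skeleton, had 58.7, 34.0 and 41.3 TPM in Ctrl against 42.1, 32.2 and 36.2 TPM in Kmt5bsKO. The groups overlapped at Hoxa7, where Ctrl replicate 1 was the highest library. Hoxa6, its neighbour in the cluster, had 23.9, 17.3 and 20.6 TPM in Ctrl against 15.9, 4.50 and 9.79 TPM in Kmt5bsKO, and the Kmt5bsKO libraries lay below the Ctrl libraries, with replicate 2 lowest. Hoxa4 had a mean of 9.23 TPM, with libraries between 4.54 and 18.7 TPM.

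Of the anterior Hoxa genes, Hoxa3, which patterns the pharyngeal arches and the thymus, had 34.5, 28.4 and 25.7 TPM in Ctrl against 22.3, 18.01 and 18.8 TPM in Kmt5bsKO. All Kmt5bsKO libraries were below all Ctrl libraries. Hoxa2, which specifies the second pharyngeal arch, had 17.99, 12.2 and 10.4 TPM in Ctrl against 10.7, 11.4 and 3.12 TPM in Kmt5bsKO, with overlap of the groups and Kmt5bsKO replicate 3 lowest. Hoxa13, the gene of the hand and foot, had the lowest mean of the cluster. It had 3.78, 6.48 and 7.31 TPM in Ctrl against 6.08, 6.57 and 1.29 TPM in Kmt5bsKO.

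In the Hoxb cluster the anterior genes had higher levels than the central ones. Hoxb2, which acts in the hindbrain, had 68.0, 36.4 and 79.5 TPM in Ctrl against 45.4, 44.7 and 28.1 TPM in Kmt5bsKO. Hoxb3 had 23.4, 14.3 and 18.6 TPM in Ctrl against 18.5, 15.7 and 9.42 TPM in Kmt5bsKO. Hoxb4, known for its effect on the expansion of blood stem cells, had 38.0, 33.7 and 43.1 TPM in Ctrl against 66.6, 36.5 and 33.2 TPM in Kmt5bsKO. The groups overlapped at all of these, with Kmt5bsKO replicate 3 the lowest library at each. Hoxb5, Hoxb6, Hoxb7 and Hoxb8 had means of only 3.12, 0.435, 2.08 and 1.55 TPM. Hoxb6, the lowest by mean, had 0.340, 0 and 0.7000 TPM in Ctrl against 0, 0 and 1.57 TPM in Kmt5bsKO, with 0 in 3 libraries. Hoxb6 and Hoxb8 did not reach the mean of 0.5 in both regions that the tests require, and were not tested.

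The Hoxc cluster was transcribed from Hoxc4 to Hoxc11. Hoxc9, a thoracic gene, had its highest mean, with 68.3, 71.2 and 109.7 TPM in Ctrl against 65.6, 48.0 and 54.7 TPM in Kmt5bsKO. The Ctrl libraries were all above the Kmt5bsKO libraries. Hoxc11 had 70.7, 61.9 and 77.5 TPM in Ctrl against 50.9, 58.3 and 64.8 TPM in Kmt5bsKO. Its lowest Ctrl library was below its highest Kmt5bsKO library. Hoxc11 was above Hoxc9 in Ctrl replicate 1 and in Kmt5bsKO replicates 2 and 3. Hoxc10, which acts with Hoxa10 in the lumbar region, had 42.5, 44.3 and 42.8 TPM in Ctrl against 30.3, 20.2 and 31.3 TPM in Kmt5bsKO. The 3 Ctrl values of Hoxc10 lay within 1.82 TPM of each other and all Kmt5bsKO values were lower.

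Further towards the anterior end, Hoxc8, known for brachial motor neurons and the thoracic skeleton, had 34.7, 39.0 and 26.6 TPM in Ctrl against 21.4, 29.3 and 16.8 TPM in Kmt5bsKO. Its groups overlapped in 1 pair of libraries, Ctrl replicate 3 being below Kmt5bsKO replicate 2. Hoxc6, a thoracic and forelimb-level gene, had 45.5, 54.3 and 34.8 TPM in Ctrl against 34.0, 25.6 and 24.2 TPM in Kmt5bsKO, without overlap. Hoxc5 had 68.1, 56.9 and 35.5 TPM in Ctrl against 35.8, 39.4 and 35.2 TPM in Kmt5bsKO. Hoxc5 overlapped because Ctrl replicate 3 was as low as the Kmt5bsKO libraries. Hoxc4 had 21.6, 24.8 and 19.4 TPM in Ctrl against 9.62, 20.8 and 24.5 TPM in Kmt5bsKO, and its groups overlapped widely.

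The posterior end of the Hoxc cluster was low. Hoxc12 had 0, 1.81 and 1.45 TPM in Ctrl against 0.620, 4.21 and 2.17 TPM in Kmt5bsKO. Hoxc13, the hair and nail gene of the cluster, had 0.650, 4.33 and 4.02 TPM in Ctrl against 9.35, 8.77 and 8.75 TPM in Kmt5bsKO, and was the member at which the Kmt5bsKO libraries were above the Ctrl libraries in both regions. In the Hoxd cluster Hoxd9 and Hoxd8 were close, with 15.8, 7.60 and 8.74 TPM in Ctrl against 7.78, 19.8 and 7.56 TPM in Kmt5bsKO for Hoxd9. Hoxd8 had 5.71, 8.31 and 14.02 TPM in Ctrl against 12.5, 19.5 and 7.00 TPM in Kmt5bsKO. At both genes Kmt5bsKO replicate 2 was the highest of all libraries and the groups overlapped. Hoxd4 had the lowest mean, with 0, 2.13 and 3.39 TPM in Ctrl against 1.64, 1.85 and 3.18 TPM in Kmt5bsKO. Hoxd3 had a mean of 2.598 TPM.

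Within a paralog group the clusters contributed unequally. In group 4, Hoxb4 had a mean of 41.8 TPM, Hoxc4 of 20.1, Hoxa4 of 9.23 and Hoxd4 of 2.03 TPM. In group 5, Hoxa5 and Hoxc5 had means of 43.7 and 45.2 TPM and Hoxb5 of 3.12 TPM. In group 9, Hoxc9 and Hoxa9 had means of 69.6 and 58.5 TPM, while Hoxd9 had 11.2 TPM. In group 13, Hoxc13 and Hoxa13 were at 5.98 and 5.25 TPM. The ranges of Hoxb4 and Hoxd4, of Hoxa5 and Hoxb5 and of Hoxa9 and Hoxd9 did not overlap, whereas those of Hoxa5 and Hoxc5 and of Hoxa9 and Hoxc9 did.

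The TSS regions gave a different order. There the median of the Hox means was 9.29 RPM, beside 18.4 RPM for all listed genes, and 7 of the 31 members were above that median, whereas 18 were above the median in the gene body. The highest were Hoxa9 at 119 RPM, Hoxa7 at 39.1 RPM and Hoxa5 at 38.7 RPM. Hoxb2 and Hoxb4 had gene bodies among the 8 highest but means of 1.74 and 0.597 RPM in the TSS region. At Hoxb4 the TSS region yielded 1, 1 and 7 reads for Ctrl but also only 3, 0 and 1 for Kmt5bsKO, whereas the gene body yielded 165, 114 and 183 reads for Ctrl and 220, 71 and 94 for Kmt5bsKO.

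The ratio of the TSS region in RPM to the gene body in TPM is the pausing index, which is high where polymerase stays near the start. From the means over libraries it was 0.0143 at Hoxb4, 0.0345 at Hoxb2 and 0.112 at Hoxb3, and only 0.120%, 0.353% and 1.63% of tested genes had lower values. For Hoxa10 it was 0.184, for Hoxc9 0.3902 and for Hoxa9 2.03. The median over the 29 tested Hox genes was 0.468, beside 1.48 over the 12451 tested genes, and 27 of the 29 lay below that median. Hox genes are short, with a median gene body of 2327 nt against 20328 nt for all listed genes. Against the 2628 other tested genes with bodies of 1400 to 8000 nt, whose median was 1.17, the 27 Hox genes in that range had a median of 0.468 and 25 were lower. The median over the tested Hox genes was between 0.381 and 0.598 in each single library, and that over all tested genes between 1.41 and 1.53.

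**Figure D2:**
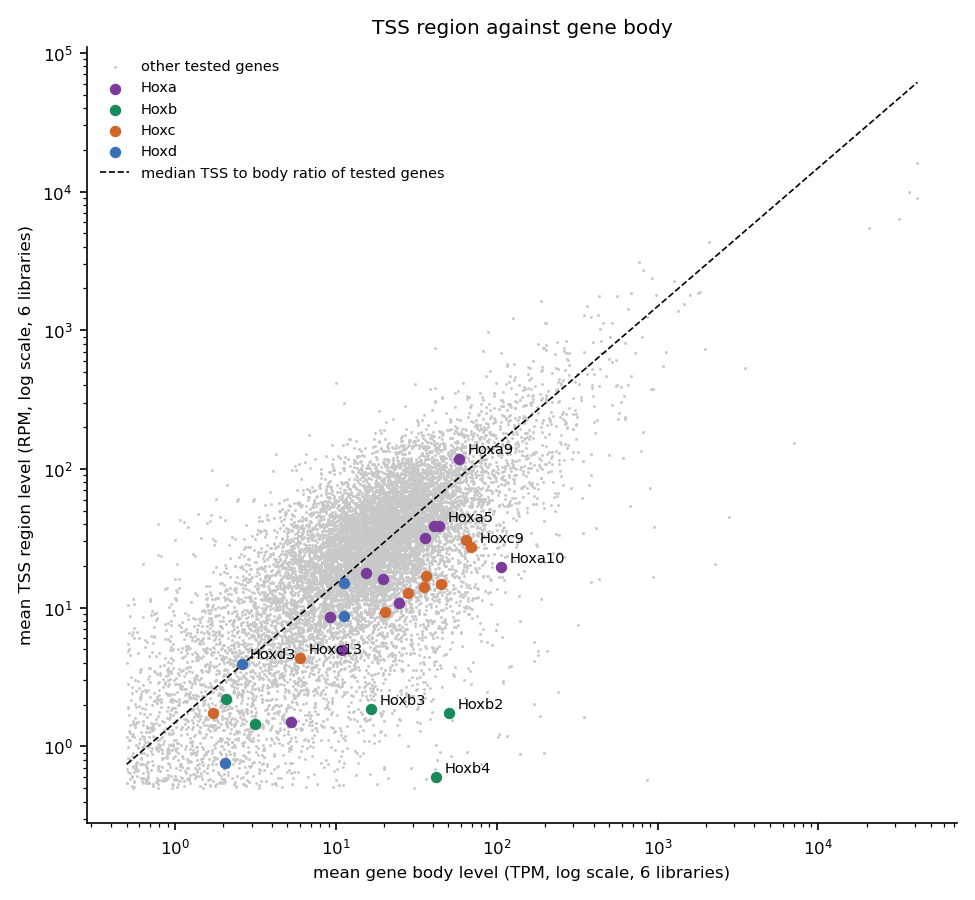
Mean TSS region level in RPM (y axis, log scale) against mean gene body level in TPM (x axis, log scale) over the 6 libraries, for the 29 tested Hox genes in the colours of their clusters and all other tested genes in grey. The dashed line is the median ratio of all tested genes, 1.48, and 27 Hox genes lie below it, Hoxb4 farthest at 0.0143.

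The listed start decides what the TSS region holds. Per the study's methods each gene is represented by the isoform with the highest TSS value, and the annotation places another coding start 20443 nt upstream of the listed one at Hoxb3, 15461 nt upstream at Hoxc4 and 5915 nt upstream at Hoxa10, but none upstream at Hoxb4 or Hoxb2. The part of unlisted upstream starts in the low index was not tested. RefSeq promoters (GRCm38.p6) were found for 16 members, 8 of them with a start equal to the listed one, and 4 are printed here as the 250 bases upstream of the start, on the strand of the gene. Hoxb4 is shown for its low TSS signal and Hoxc4 as its paralog. Hoxa10 is shown for the highest mean gene body level and Hoxa5 for a TSS region among the 3 highest. They lie at chr11:96318017-96318266 and chr15:103034145-103034394 on the plus strand and at chr6:52234940-52235189 and chr6:52204588-52204837 on the minus strand. Capitals mark the letters TATAAA or CCAAT on either strand, the complement being written TTTATA or ATTGG.
Hoxb4: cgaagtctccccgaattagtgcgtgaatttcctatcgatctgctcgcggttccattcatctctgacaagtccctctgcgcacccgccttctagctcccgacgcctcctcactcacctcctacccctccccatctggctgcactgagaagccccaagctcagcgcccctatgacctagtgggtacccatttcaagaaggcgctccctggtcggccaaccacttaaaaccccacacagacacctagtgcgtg
Hoxc4: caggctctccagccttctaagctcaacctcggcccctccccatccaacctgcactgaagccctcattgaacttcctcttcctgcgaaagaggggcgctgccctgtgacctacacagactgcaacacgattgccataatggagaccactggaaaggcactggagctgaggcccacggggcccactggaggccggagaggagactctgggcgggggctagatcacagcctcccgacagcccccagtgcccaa
Hoxa10: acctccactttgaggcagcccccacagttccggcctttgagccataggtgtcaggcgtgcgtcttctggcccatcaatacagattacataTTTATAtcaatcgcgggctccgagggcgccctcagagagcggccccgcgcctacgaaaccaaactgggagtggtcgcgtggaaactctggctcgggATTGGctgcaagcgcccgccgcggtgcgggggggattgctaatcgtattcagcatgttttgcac
Hoxa5: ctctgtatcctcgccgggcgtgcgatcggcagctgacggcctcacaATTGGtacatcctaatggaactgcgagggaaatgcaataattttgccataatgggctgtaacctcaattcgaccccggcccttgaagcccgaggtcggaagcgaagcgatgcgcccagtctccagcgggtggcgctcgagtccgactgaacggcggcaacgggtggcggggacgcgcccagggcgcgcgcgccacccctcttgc

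Neither set of letters occurred in these bases of Hoxb4 and Hoxc4. The Hoxa10 window held TATAAA and CCAAT, both on the complementary strand, and the Hoxa5 window held CCAAT on the complementary strand. TATAAA was in 3 of the 17 Hox windows of this length and in 12.4% of the 32851 RefSeq windows, and CCAAT was in 9 of the 17 and in 33.8%. The dinucleotide CG was counted 14 times in the median Hox window of 300 bases and 7 times in the median of all windows.

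Both microRNA genes found inside listed gene bodies are known from Hox clusters. The gene Mir10b lies in the body of Hoxd3 and Mir615 in that of Hoxc5, so that nascent RNA of these hosts covers them. Their mature forms lie at chr2:74726074-74726096 and chr15:103014969-103014990, both on the plus strand, and are given from RefSeq with the seed (bases 2 to 8) in capitals.
mmu-miR-10b-5p: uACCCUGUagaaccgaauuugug
mmu-miR-615-3p: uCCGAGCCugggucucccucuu

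The seeds differ, and the hosts differed in level as well, with means of 2.598 TPM at Hoxd3 and 45.2 TPM at Hoxc5. PRO-seq does not measure the mature forms.

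Between the genotypes the Hoxa, Hoxb and Hoxc genes mostly had lower gene body values in Kmt5bsKO, but no single Hox gene passed the test in limma. In the gene body, 0 of 29 tested Hox genes were called at an adjusted p under 0.1 (limma on log2 of TPM plus 0.5), where 2.99% of the 12451 tested genes were called. At an unadjusted p under 0.05, 7 Hox genes were lower and 2 higher, beside 6.46% and 9.45% of all tested genes. On the counts recovered from the values, edgeR called 1 of the 29, Hoxa3 as lower, and DESeq2 called 3, Hoxa3 and Hoxc10 as lower and Hoxc13 as higher, beside 6.01% and 10.4% of all genes. The log2 difference (Kmt5bsKO minus Ctrl) had a median of -0.38 over the 29 genes and 0.02 over all tested genes, and 20 of the 29 were below 0, beside 46.2% of all tested genes. By cluster, 9 of 11 Hoxa genes, 4 of 5 Hoxb genes, 7 of 9 Hoxc genes and 0 of 4 Hoxd genes were below 0, with medians of -0.50, -0.59, -0.48 and 0.53. Members of a cluster share reads and libraries, so these counts are not counts of independent events.

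The summed gene body level of each cluster was also taken by library. Over the 9 Hoxc genes the sums were 352, 359 and 352 TPM in Ctrl against 258, 254 and 262 TPM in Kmt5bsKO, a ratio of the means of 0.729. The groups did not overlap on this sum, whose SD of 3.79 TPM in Ctrl was smaller than that of Hoxc9 (23.1 TPM), Hoxc5 (16.6 TPM) or Hoxc6 (9.76 TPM) alone, since Hoxc9 was highest in the Ctrl library in which Hoxc5 and Hoxc6 were lowest. Without Hoxc9 and Hoxc11 the sums were 213, 225 and 165 TPM in Ctrl against 141, 148 and 143 TPM in Kmt5bsKO, where the groups still did not overlap but Ctrl replicate 3 lay nearer to the Kmt5bsKO libraries. Over the 11 Hoxa genes the sums were 473, 309.8 and 447 TPM in Ctrl against 374, 286 and 332 TPM in Kmt5bsKO, and the groups overlapped. The Hoxb sums of 140.2, 87.6 and 154 TPM and of 139, 99.0 and 77.0 TPM overlapped as well. The Hoxd sums were 23.8, 19.8 and 27.9 TPM in Ctrl against 24.4, 44.3 and 22.03 TPM in Kmt5bsKO, with Kmt5bsKO replicate 2 apart from the rest. In the TSS regions, the Hoxc sums were 131, 181 and 113 RPM in Ctrl against 107, 131 and 128 RPM in Kmt5bsKO. There the groups overlapped, and the ratio of the means was 0.862. Sums over genes chosen with results known were not tested.

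**Figure D3:**
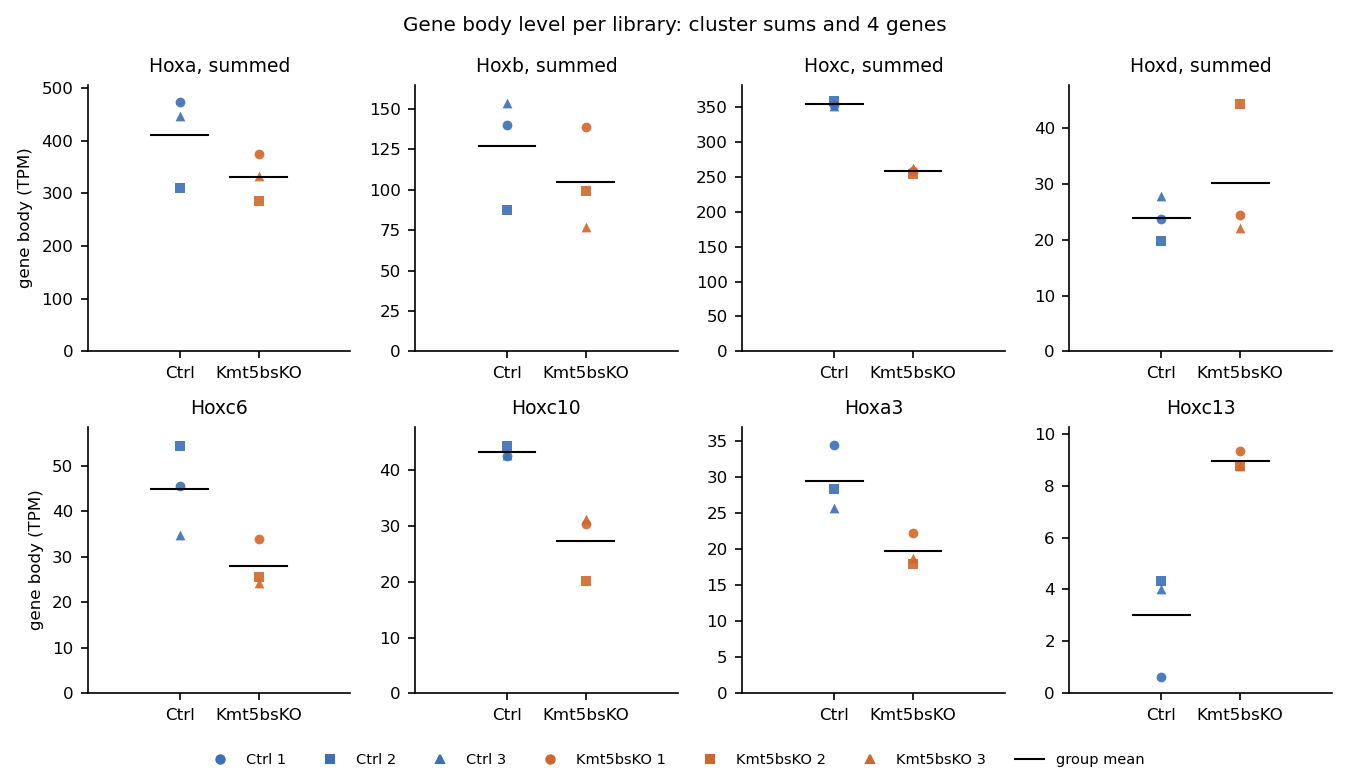
Gene body level in TPM (y axes from 0, linear and different in each panel) per library for the sum of each cluster (upper row) and for Hoxc6, Hoxc10, Hoxa3 and Hoxc13 (lower row), with Ctrl in blue, Kmt5bsKO in orange and bars for the means of 3 libraries. The Hoxc sums lay at 352 to 359 TPM in Ctrl against 254 to 262 TPM in Kmt5bsKO, and all Kmt5bsKO libraries lay above all Ctrl libraries at Hoxc13.

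Of the 29 gene bodies, 6 had all Kmt5bsKO libraries below all Ctrl libraries, where 9.34% of all tested genes did, and 2 had them above, where 12.0% did. The 6 were Hoxa3, Hoxa5, Hoxa6, Hoxc6, Hoxc9 and Hoxc10, and the 2 were Hoxc13 and Hoxd3. All 7 genes from Hoxc4 to Hoxc11 had gene body log2 differences below 0, from -0.68 to -0.27, and so had all 7 from Hoxa2 to Hoxa9, from -1.15 to -0.24. For Hoxc10 the difference was -0.68 (SE 0.18) with an adjusted p of 0.134 in limma. For Hoxa3 it was -0.57 (SE 0.16) with an adjusted p of 0.142 in limma, and for Hoxc6 -0.67 (SE 0.20) with 0.173. Each of the others that reached an unadjusted p under 0.05 in limma, Hoxa5, Hoxa6, Hoxc8 and Hoxc9, had a difference between -1.15 and -0.54 and an adjusted p from 0.225 to 0.287.

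Hoxa3 was called by edgeR and DESeq2 but not by limma, and its body holds other Hox genes. Without the reads and length of Hoxa4, Hoxa5 and Hoxa6, which made up 25.6% to 32.4% of its reads, the level of the remaining 36304 nt was 28.0, 25.3 and 23.0 TPM in Ctrl against 18.8, 15.6 and 16.2 TPM in Kmt5bsKO. The groups did not overlap there either. This value was added after the data had been seen. The annotated gene Gm28308 also overlaps the Hoxa3 body on the same strand and was not removed, so the rest is not Hoxa3 alone. In the TSS region of Hoxa3, at the far end of that body, the libraries had 15.7, 9.19 and 7.58 RPM in Ctrl against 13.1, 8.58 and 10.1 RPM in Kmt5bsKO, and the groups overlapped. For Hoxa10, the gene with the highest mean, the gene body difference was -0.06 (SE 0.32) with a 95% interval of -0.80 to 0.68, which includes 0.

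Leaving out Ctrl replicate 3 brought 3 Hox genes past the limma threshold in the gene body, Hoxc5, Hoxc6 and Hoxa3, all lower, with adjusted p-values of 0.0477, 0.0696 and 0.0822, while 6.71% of all genes were then called. Ctrl replicate 3 had the lowest Ctrl values of Hoxa3, Hoxa5, Hoxc5, Hoxc6 and Hoxc8 and the highest of Hoxa10, Hoxc9 and Hoxc11.

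The 2 genes in the opposite direction had low levels. At Hoxc13 (chr15:102921103-102928814) the TSS region had 1.94, 1.72 and 1.89 RPM in Ctrl against 5.90, 7.92 and 6.44 RPM in Kmt5bsKO. The reads behind the gene body values were 7, 36 and 42 in Ctrl and 76, 42 and 61 in Kmt5bsKO, and those behind the TSS values 8, 3 and 10 and 18, 12 and 14. In limma, the log2 difference was 1.62 (SE 0.47) in the TSS region with an adjusted p of 0.114 and 1.69 (SE 0.52) in the gene body with an adjusted p of 0.173. Hoxd3, a gene of the neck vertebrae, had 2.28, 1.74 and 1.75 TPM in Ctrl against 2.43, 3.10 and 4.29 TPM in Kmt5bsKO in the gene body, a log2 difference of 0.62 (SE 0.24) with an adjusted p of 0.271 in limma. Without Hoxd4, the rest of its body had 2.38, 1.69 and 1.63 TPM in Ctrl against 2.42, 3.20 and 4.30 TPM in Kmt5bsKO. The annotated gene Gm28230, which overlaps the Hoxd3 body on the same strand, was not removed.

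In the TSS region, 0 of 29 Hox genes were called by limma, edgeR or DESeq2, where limma called 1.66%, edgeR 2.24% and DESeq2 2.37% of all tested genes. At an unadjusted p under 0.05 in limma, 3 Hox genes were lower and 1 higher, beside 3.65% and 7.35% of all tested genes. The median log2 difference was -0.12 over the 29 genes and 0.08 over all genes, and 19 of the 29 were below 0, beside 41.8% of all tested genes. Without Kmt5bsKO replicate 2 the median over the 29 was 0.01, and the direction is not settled. Hoxa2 had 10.4, 5.75 and 4.74 RPM in Ctrl against 3.28, 1.98 and 3.68 RPM in Kmt5bsKO, with all Kmt5bsKO libraries below all Ctrl libraries. Its log2 difference was -1.06 (SE 0.47) with an adjusted p of 0.405 in limma. Hoxc5 had 22.03, 27.0 and 9.85 RPM in Ctrl against 7.87, 13.9 and 8.28 RPM in Kmt5bsKO, and Hoxa6 had 22.5, 35.6 and 12.3 RPM in Ctrl against 14.8, 10.6 and 11.04 RPM in Kmt5bsKO. Their groups overlapped through Ctrl replicate 3, the lowest Ctrl library at both, and limma gave log2 differences of -0.87 (SE 0.39) and -0.82 (SE 0.36) with adjusted p-values of 0.405 and 0.398.

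At 2 members the groups overlapped in neither region. Hoxc10 had 14.8, 19.0 and 15.7 RPM in Ctrl against 13.4, 10.6 and 11.5 RPM in Kmt5bsKO in the TSS region, all Kmt5bsKO libraries below Ctrl as in the gene body, with a TSS difference of -0.46 (SE 0.32) and an adjusted p of 0.672 in limma. Hoxc13 was above in both. Groups that overlapped in neither region, with the same direction, were seen in 6.39% of all tested genes, so 2 of 29 is near the background. In the TSS region alone, 2 Hox genes (Hoxa2 and Hoxc10) lay below Ctrl in all libraries, where 5.33% of tested genes did, and 1 above, where 10.2% did.

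**Figure D4:**
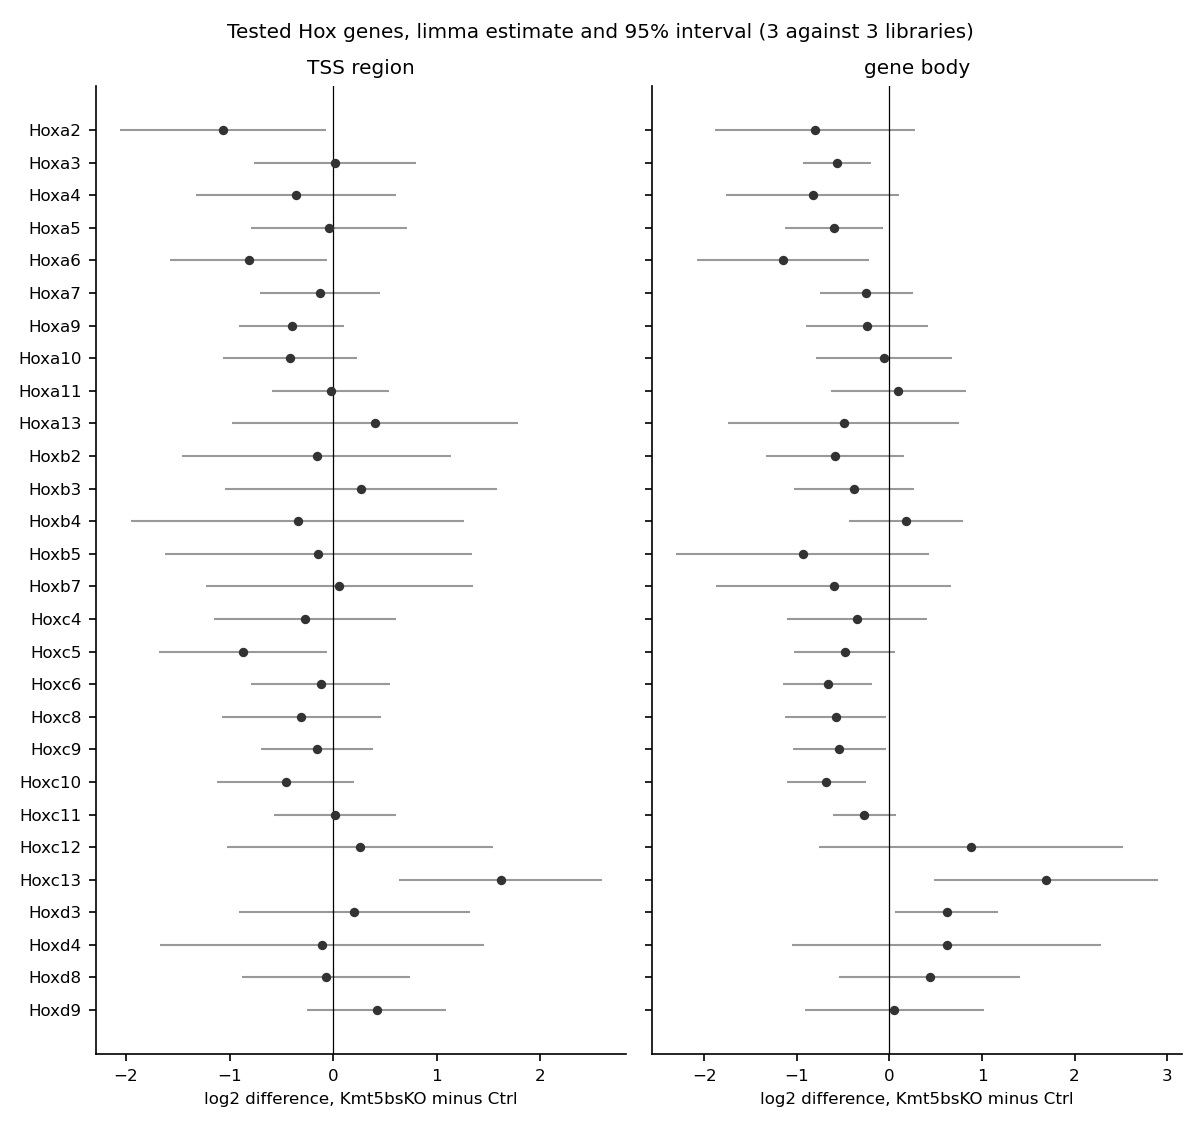
Log2 difference between Kmt5bsKO and Ctrl (x axes) with 95% intervals from limma for 28 tested Hox genes (y axis, by cluster and paralog group), in the TSS region (left) and the gene body (right). Gene body estimates from Hoxa2 to Hoxa9 and from Hoxc4 to Hoxc11 were all below 0, and those of the 4 Hoxd genes and of Hoxc12 and Hoxc13 above 0, with many intervals that include 0.

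For the pausing index, 26 Hox genes had reads in both regions of all libraries, and 0 of them were called by limma, which called 0.0% of 11698 genes. None reached an unadjusted p under 0.05, whereas 3.86% of all genes did, and the index has no count test. Over the 26 genes the median log2 difference was 0.28, beside 0.05 over all genes, and 8 were below 0, beside 42.7% of all genes. Without Ctrl replicate 3 the median was -0.0015. The Hox genes with the smallest unadjusted p were Hoxa3 and Hoxc6, whose log2 differences were 0.60 (SE 0.32) and 0.56 (SE 0.30) with unadjusted p-values of 0.0978 and 0.0986 in limma.

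Genes next to the clusters gave a background for the Hox values. Of the flanking genes of the Hoxc cluster, Cbx5, which encodes a heterochromatin protein, was called in the TSS region, with a log2 difference of -0.94 and an adjusted p of 0.0976 in limma, and had a gene body of 50.5, 59.1 and 47.5 TPM in Ctrl against 44.6, 40.4 and 44.5 TPM in Kmt5bsKO. The groups did not overlap at Cbx5, and its gene body did not pass the test. It was the only one of 24 tested flanking genes called in either region by limma, while edgeR and DESeq2 called Cbx5 in the TSS region and Skap2, beside the Hoxa cluster, in the gene body, both lower. Over all tested genes limma called 1.66%, edgeR 2.24% and DESeq2 2.37% in the TSS region, and 2.99%, 6.01% and 10.4% in the gene body. The highest Hoxc flanking genes were Hnrnpa1, with 235, 222 and 256 TPM in Ctrl against 217, 189.6 and 197 TPM in Kmt5bsKO, and Atp5g2, with 126, 140.1 and 89.1 TPM in Ctrl against 113, 109.7 and 106 TPM in Kmt5bsKO. Hnrnpa1, an RNA-binding protein gene, was lower in all Kmt5bsKO libraries, and the summed level of the 8 listed flanking genes was 483 to 539 TPM in Ctrl against 432 to 473 TPM in Kmt5bsKO. These groups did not overlap either. The median log2 difference of these genes in the gene body was -0.09, beside -0.48 for the Hoxc genes.

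Beside the Hoxa cluster, the highest genes were Cbx3, with 55.5, 54.0 and 64.7 TPM in Ctrl against 52.3, 45.2 and 42.6 TPM in Kmt5bsKO, and Tax1bp1, with 21.2, 27.8 and 21.03 TPM in Ctrl against 24.0, 22.8 and 24.6 TPM in Kmt5bsKO. Cbx3 was lower in all Kmt5bsKO libraries, and Tax1bp1 overlapped. Beside Hoxb they were Nfe2l1, with 40.4, 53.9 and 62.5 TPM in Ctrl against 60.6, 46.1 and 59.1 TPM in Kmt5bsKO, and Atp5g1, with 47.4, 44.8 and 52.6 TPM in Ctrl against 59.6, 35.7 and 46.4 TPM in Kmt5bsKO, and both overlapped. Beside Hoxd they were Hnrnpa3, with 129.7, 138 and 204 TPM in Ctrl against 132, 122 and 106 TPM in Kmt5bsKO, and Atp5g3, with 131, 128 and 76.5 TPM in Ctrl against 123, 83.1 and 135 TPM in Kmt5bsKO. Hnrnpa3 and Atp5g3 also overlapped, and the median gene body differences of the tested flanking genes were -0.13, -0.03 and -0.11 for the 3 clusters.

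Hox proteins bind DNA with TALE homeodomain partners, and the MLL and Polycomb complexes are known to maintain the active and silent state of the clusters. Of 9 TALE genes, 8 MLL and menin complex genes and 12 other tested regulators, 0 were called in either region by limma, and 0, 0 and 1 reached an unadjusted p under 0.05 in the TSS region and 1, 1 and 4 in the gene body, where the shares of all tested genes, higher and lower, were 7.35% and 3.65% in the TSS region and 9.45% and 6.46% in the gene body. The highest TALE genes were Pknox2, with 46.1, 42.0 and 36.3 TPM in Ctrl against 33.6, 27.2 and 34.2 TPM in Kmt5bsKO, and Pknox1, with 23.5, 26.1 and 16.6 TPM in Ctrl against 21.4, 18.2 and 21.9 TPM in Kmt5bsKO. Pknox2 was lower in all Kmt5bsKO libraries and Pknox1 overlapped. Of the MLL complex, Kmt2b had 49.7, 45.4 and 30.0 TPM in Ctrl against 36.6, 37.0 and 41.0 TPM in Kmt5bsKO and Kmt2a had 32.9, 34.0 and 25.0 TPM in Ctrl against 28.0, 29.4 and 28.6 TPM in Kmt5bsKO, and both overlapped. On the recovered counts edgeR called 3 of these regulators in the gene body, Psip1, Ezh2 and Suz12, and DESeq2 called 6, the same 3 with Ctcf, Nr6a1 and Pknox2, all lower, beside 6.01% and 10.4% of all tested genes. Skap2 and these regulators are named because of their values. Ezh2 and Suz12 encode core subunits of the Polycomb repressive complex that methylates histone H3, and had 26.3, 23.7 and 23.2 TPM in Ctrl against 14.9, 20.1 and 15.4 TPM in Kmt5bsKO for Ezh2. Suz12 had 35.8, 31.9 and 30.7 TPM in Ctrl against 24.0, 24.9 and 22.4 TPM in Kmt5bsKO. Both lay below Ctrl in all Kmt5bsKO libraries, with adjusted p-values of 0.152 and 0.137 in limma. Eed, the gene of another core subunit of that complex, was called by none of the tools and had 35.5, 33.2 and 37.9 TPM in Ctrl against 33.8, 32.7 and 30.9 TPM in Kmt5bsKO, with overlap of the groups and a log2 difference of -0.13 (limma, adjusted p = 0.689). The highest of the other regulators was Kdm6b, an H3 lysine demethylase gene, which had 104, 102 and 112 TPM in Ctrl against 97.0, 99.3 and 101 TPM in Kmt5bsKO, with the highest Kmt5bsKO library just below the lowest Ctrl library. The receptor gene Rara had 55.4, 58.0 and 39.3 TPM in Ctrl against 61.7, 52.9 and 60.3 TPM in Kmt5bsKO and overlapped.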

How the data were processed

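PRO-seq libraries of cultured MuSC (3 Ctrl, 3 Kmt5bsKO) were analysed from 1 table. Per the study's methods and the submitters' processing notes, the authors checked reads with FastQC 0.11.8, trimmed them with Trimmomatic 0.39, aligned them with STAR 2.6.1d to mm10 (GRCm38), kept 1 random position of a multi-mapping read and removed duplicates with Picard 2.18.16. Without molecular identifiers, this caps dense signal. Sense-strand reads were summed per isoform, and the isoform with the highest TSS value was kept, so antisense genes do not add reads but same-strand genes do. The deposited TSS values are named TPM, but all 14546 regions have 400 nt, so they equal RPM by the authors and were used as such. The deposited gene body values are TPM by the authors. Whole reads were checked in the TSS regions and in gene bodies under 2000 nt. Within 0.1 read, 100% of low values there were multiples of 1 read in each library. Counts of all genes were then recovered from the deposited values for edgeR and DESeq2, without such a check of longer gene bodies. Read counts cover counting error only.

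Genes on X and Y and genes with a mean under 0.5 in either region were left out, leaving 12451. Log2 of the value plus 0.5 (fold changes of low genes are therefore understated), or of the pausing index, was fitted by genotype alone in limma 3.58.1 (lmFit, trended eBayes; R 4.3.3), with Benjamini-Hochberg adjustment over all genes and a threshold of 0.1. Alternatives were edgeR 4.0.16, DESeq2 1.42.0, other pseudocounts, filters and scaling, a replicate block and each library left out. Scripts were tested on simulated data. Annotation was GENCODE M21, with promoters and microRNAs from RefSeq.

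The members and gene lists were chosen with earlier results of these data known. All 6 values are given for Hox genes that were called or had at least 10 TPM. They are also given for Hox genes that were highest or lowest in their cluster or overlapped in neither region. Of the flanking genes and regulators, those called by limma, the highest 2 of each list and Ezh2, Suz12 and Eed have all values. Skap2, Psip1, Ctcf and Nr6a1, called by edgeR or DESeq2 alone, are named without them. The values of 1 Hox gene are not reported here, and it is counted only in totals over members.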

Additional observations from a re-analysis of the deposited data

How the results depend on the processing

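The level results kept their values: 21 Hox genes with at least 10 TPM and a Hoxa10 mean of 106 TPM became 20 and 102 with medians over libraries and 21 and 112 in the Ctrl libraries alone. The count of called Hox genes stayed at 0 for the pausing index and the TSS region under every alternative run. In the gene body it was 0 except for 1 with edgeR, 3 with DESeq2 and 0 to 3 with 1 library left out. The median log2 difference of the Hox genes in the gene body stayed below 0 under every alternative, from -0.46 to -0.29 with 1 library left out. In the TSS region it ranged from -0.20 to 0.011 with 1 library left out, the positive value being that without Kmt5bsKO replicate 2, and in the pausing index from -0.0015 to 0.49, the lowest value being that without Ctrl replicate 3. The cause was not tested. The counts over all genes were far less stable. From 207 in the TSS region they went to 0 without the filter and without the trend, 64 at an adjusted p under 0.05 and 1 to 408 with 1 library left out, and the split of 116 higher and 91 lower became 104 and 122 after centring. From 372 in the gene body they went to 1 at an adjusted p under 0.05, 748 with edgeR, 1296 with DESeq2 and 0 to 836 with 1 library left out. In the pausing index, 1 gene was called with a pseudocount of 0.5.

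With the replicate number as a block, 0 Hox genes and 0 genes in all were called in both regions, and the Hox medians of -0.12 and -0.38 do not change. Same-numbered libraries did not deviate together (correlations of -0.16 to -0.03 in the TSS region and -0.33 to -0.15 in the gene body). With 3 libraries a group, such correlations cannot exclude a shared day, litter or preparation, on which the labels are silent. Precision is limited by 3 libraries a group and by few reads: 6 to 12 of the 31 Hox genes had under 10 reads in the TSS region of a library, and 4 to 9 in the gene body.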
